A study of Mus musculus with 6 samples.

Results

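Of the 3080 peaks that the transcriptional repressor REST had in E14 mouse embryonic stem cells outside a crowded stretch of chromosome X, 299 (9.71%) lay less than 400 bp, midpoint to midpoint, from a peak of at least 1 of the cofactors SIN3A, RCOR1 and RCOR2. These 299 REST peaks, called members here, were chosen by that distance alone, and they were set beside RCOR3 and SIN3B, the other 2 cofactors mapped in the same study. The stretch left out was chromosome X from 165.3 to 165.4 Mb. Binding was read by ChIP-seq, in which DNA bound to a precipitated protein is sequenced, with 1 library per protein from cells at passages 15 to 18, so no value has a replicate error. REST and SIN3A were precipitated from E14 cells with antibodies against the proteins themselves. RCOR1, RCOR2, RCOR3 and SIN3B were precipitated with a V5 antibody from stable E14 lines with low exogenous expression of the tagged cofactor (the SIN3B transgene label gives the tag as VG). The V5 libraries thus hold binding of an added protein in cells that keep their own, and neither the transgenes' promoter nor the number of clones is given in the sources used here. Intervals of shares and medians in the text are 95% intervals for counting error. Peaks of 1 library are not replicates, and no test was made.

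REST binds the RE1 element, a long DNA motif near many neuronal genes, and keeps those genes silent outside neurons and in stem cells. It recruits repressors through both ends of the protein. The N-terminal repression domain binds the SIN3 scaffolds, SIN3A and SIN3B, which carry histone deacetylases. The C-terminal domain binds CoREST proteins, encoded by Rcor1, Rcor2 and Rcor3, which bring the histone demethylase LSD1 and histone deacetylases to the site. The rule uses SIN3A of the N-terminal arm and RCOR1 and RCOR2 of the C-terminal arm, which leaves SIN3B and RCOR3 as the other member of each arm.

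Outside the stretch RCOR1 had 60 peaks, RCOR2 437, SIN3A 1292, RCOR3 3729 and SIN3B 5294. Each peak had a score given by the authors, whose meaning is not stated, and scores were used to order peaks within a list. A rank of 1 is the highest score of a list, and a percentile is the position in the list from lowest to highest, with tied peaks sharing both. The REST list spanned scores of 8 to 1121.33 (median 21.34). Positions are on build mm8 as deposited. No annotation or genome of that build was used here, so no gene, exon or base sequence is given for a peak.

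SIN3A accounted for most of the members. It was present at 258 of the 299 (86.3%, 81.9 to 90.0%), against 74 for RCOR2 (24.7%, 19.96 to 30.04%) and 62 for RCOR1 (20.7%, 16.3 to 25.8%). Over all REST peaks these cofactors were present at 8.38%, 2.40% and 2.01%, and the rule fixes that the members hold every one of them. Of the members, 196 had SIN3A and neither of the short-list CoREST proteins, 33 had both RCOR1 and RCOR2, 29 had RCOR1 without RCOR2 and 41 had RCOR2 without RCOR1.

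With the full lists, the cofactors that the rule did not use were present at most members. SIN3B lay at 274 (91.6%, 87.9 to 94.5%), with a background of 38.7% over all REST peaks. RCOR3 lay at 253 (84.6%, 80.0 to 88.5%), with a background of 32.6%. Both lay at 243 members (81.3%, 76.4 to 85.5%) against 26.2% of all REST peaks, and neither at 15 members (5.02%, 2.84 to 8.14%) against 54.9%. With every cofactor list limited to about the length of the shortest, SIN3B was at 23.6% (15.2 to 33.8%) and RCOR3 at 49.4% (38.7 to 60.2%) of the 89 members that remained, and neither was at 50.6% (39.8 to 61.3%). Every one of the 62 members with RCOR1 also had RCOR3 (94.2 to 100%), and 60 of them had SIN3B. Of the 74 members with RCOR2, 69 (93.2%, 84.9 to 97.8%) had RCOR3 and 71 (95.9%, 88.6 to 99.2%) had SIN3B. Of the 258 with SIN3A, 216 (83.7%, 78.6 to 88.0%) had RCOR3 and 237 (91.9%, 87.8 to 94.9%) had SIN3B. SIN3A itself was at 42 of the 62 members with RCOR1 (67.7%, 54.7 to 79.1%) and 49 of the 74 with RCOR2 (66.2%, 54.3 to 76.8%). Members were also high in REST score, with a median of 70.53 (64.6 to 80.6) against 21.34 over all REST peaks, so these shares are not compared at equal REST score here.

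Of the possible combinations, 15 occurred among the members. RCOR3, SIN3A and SIN3B without RCOR1 or RCOR2 was the commonest, at 148 members (49.5%), with REST scores from 8.89 to 315.89 and a median of 74.97 (64.6 to 88.31). All 5 cofactors met at 29 members (9.70%, 6.59 to 13.6%), which are 0.942% of all REST peaks. Every REST peak with all 5 is a member by the rule, so both shares count the same 29 peaks. Their REST scores had a median of 267.29 (179.58 to 427.91), and the median REST percentile was 99.4. SIN3A with SIN3B alone was next with 28 members and a median REST score of 33.19 (17.78 to 49.78). RCOR2 with RCOR3, SIN3A and SIN3B was found at 18 members, with a median of 161.80 (62.23 to 219.29). RCOR2, RCOR3 and SIN3B were at 17 (median 79.42), RCOR1, RCOR3 and SIN3B at 14 (86.83), and RCOR1, RCOR3, SIN3A and SIN3B at 13 (109.64, 98.58 to 168.32). SIN3A as the sole cofactor was found at 13 members with a median REST score of 12.45 (10.08 to 34.97). RCOR3 with SIN3A was at 7 members (24.89), RCOR1 with RCOR2, RCOR3 and SIN3B at 4 (99.72), and the other 5 combinations held 1 or 2 members each.

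**Figure D1:**
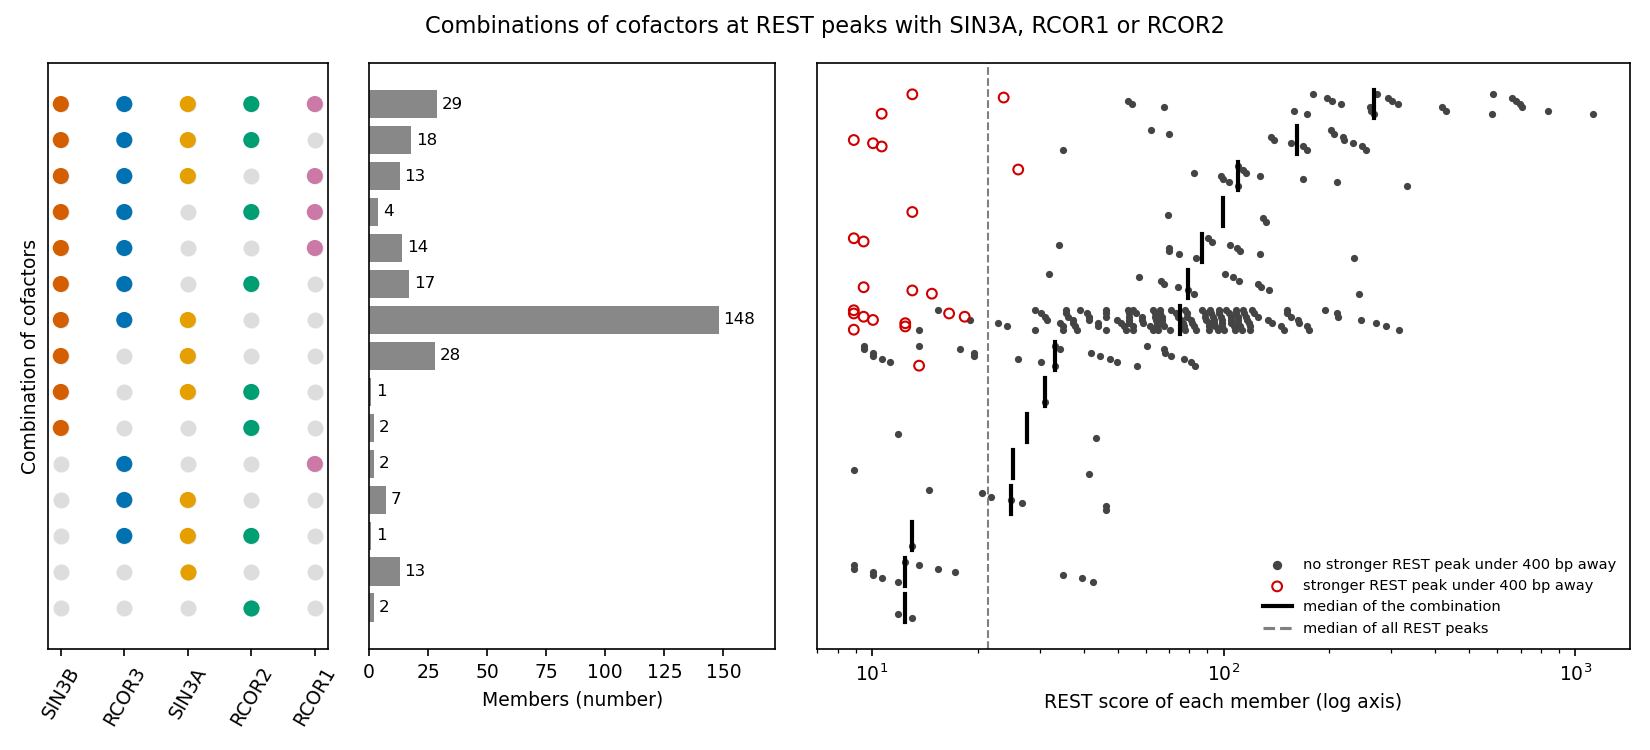
Combinations of cofactors at the 299 REST peaks with SIN3A, RCOR1 or RCOR2, ordered by median REST score. Left, filled dots mark the cofactors of a combination; middle, its number of members; right, the REST score of each member on a log axis, with a black bar at the combination's median and a dashed line at the median of all REST peaks, 21.34. The 29 members with all 5 cofactors have a median of 267.29 and the 13 with SIN3A alone one of 12.45; red circles are members with a stronger REST peak less than 400 bp away, 21 of them left of the dashed line.

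By the number of cofactors, the median REST score of members was 12.45 (10.08 to 17.19) with 1 cofactor, 30.23 (19.56 to 44.45) with 2, 75.86 (66.38 to 87.12) with 3, 126.83 (99.57 to 168.32) with 4 and 267.29 with 5. Neighbours in this order had intervals that did not overlap. Among the other REST peaks the median was 52.15 (49.78 to 54.53) for the 563 with only RCOR3 and SIN3B, 29.24 (27.86 to 31.41) for the 542 with 1 of those alone, and 13.63 (13.34 to 14.22) for the 1676 with no cofactor. Members with 3 or more cofactors thus lay above REST peaks with only RCOR3 and SIN3B, while the 15 members with 1 cofactor lay at the level of REST peaks with none. Members with RCOR1 and RCOR2 together had a median REST score of 261.17 (158.84 to 312.34). The median was 99.57 (74.68 to 111.42) with RCOR1 without RCOR2, 79.42 (43.26 to 134.54) with RCOR2 without RCOR1 and 62.23 (53.34 to 67.56) with SIN3A and neither. The intervals of the single-CoREST groups overlapped each other.

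The cofactors came in at different REST scores. In the lowest decile of REST scores, 8 to 9.48, SIN3B was at 8.26% of REST peaks (5.60 to 11.7%) and RCOR3 at 7.69% (5.13 to 10.99%). A stronger REST peak lay less than 400 bp from 19 of the 29 with SIN3B and 19 of the 27 with RCOR3. There, 1 cofactor peak can be matched to both REST peaks. In decile 6, from 21.34 to 27.07, SIN3B was at 26.7% (21.9 to 32.0%) and RCOR3 at 19.9% (15.6 to 24.8%), while SIN3A was still at 2.57% (1.12 to 5.01%). SIN3B first passed 50% in decile 8, at 68.9% (63.5 to 74.0%), as did RCOR3, at 53.8% (48.1 to 59.5%). SIN3A was at 4.90% in decile 7, 7.69% in decile 8, 12.9% (9.41 to 17.2%) in decile 9 and 42.2% (36.6 to 47.9%) in decile 10, where REST scores began at 69.34. RCOR1 stayed at or below 0.971% and RCOR2 at or below 2.27% in deciles 1 to 9, and each was at 49 of the 308 REST peaks of decile 10 (15.9%, 12.01 to 20.5%).

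Within the highest decile the cofactors of the rule separated further by rank of the REST peak. SIN3A was at 21 of 101 REST peaks with ranks 201 to 300 (20.8%, 13.4 to 30.01%), at 38 of 101 with ranks 101 to 200 (37.6%, 28.2 to 47.8%), at 43 of 72 with ranks 31 to 100 (59.7%, 47.5 to 71.1%) and at 18 of 20 with ranks 11 to 30 (90%, 68.3 to 98.8%). RCOR2 was at 4, 3, 17 and 14 peaks of the same bands, and RCOR1 at 5, 9, 14 and 10. Below the 30 highest REST peaks neither of these CoREST proteins reached 25% of a band, and their intervals overlapped in each band. All 10 of the highest REST peaks had all 5 cofactors. The first REST peak without RCOR2 was at rank 11, without RCOR1 at rank 12, without SIN3A at rank 25, without SIN3B at rank 118 and without RCOR3 at rank 120. Of all REST peaks with RCOR1, 77.4% were among the 300 highest REST peaks, and of those with RCOR2 64.9%, against 50.4% for SIN3A, 29.2% for RCOR3 and 25.1% for SIN3B. For scale, the highest decile, of about the same extent, held 308 of all 3080 REST peaks (10%).

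**Figure D2:**
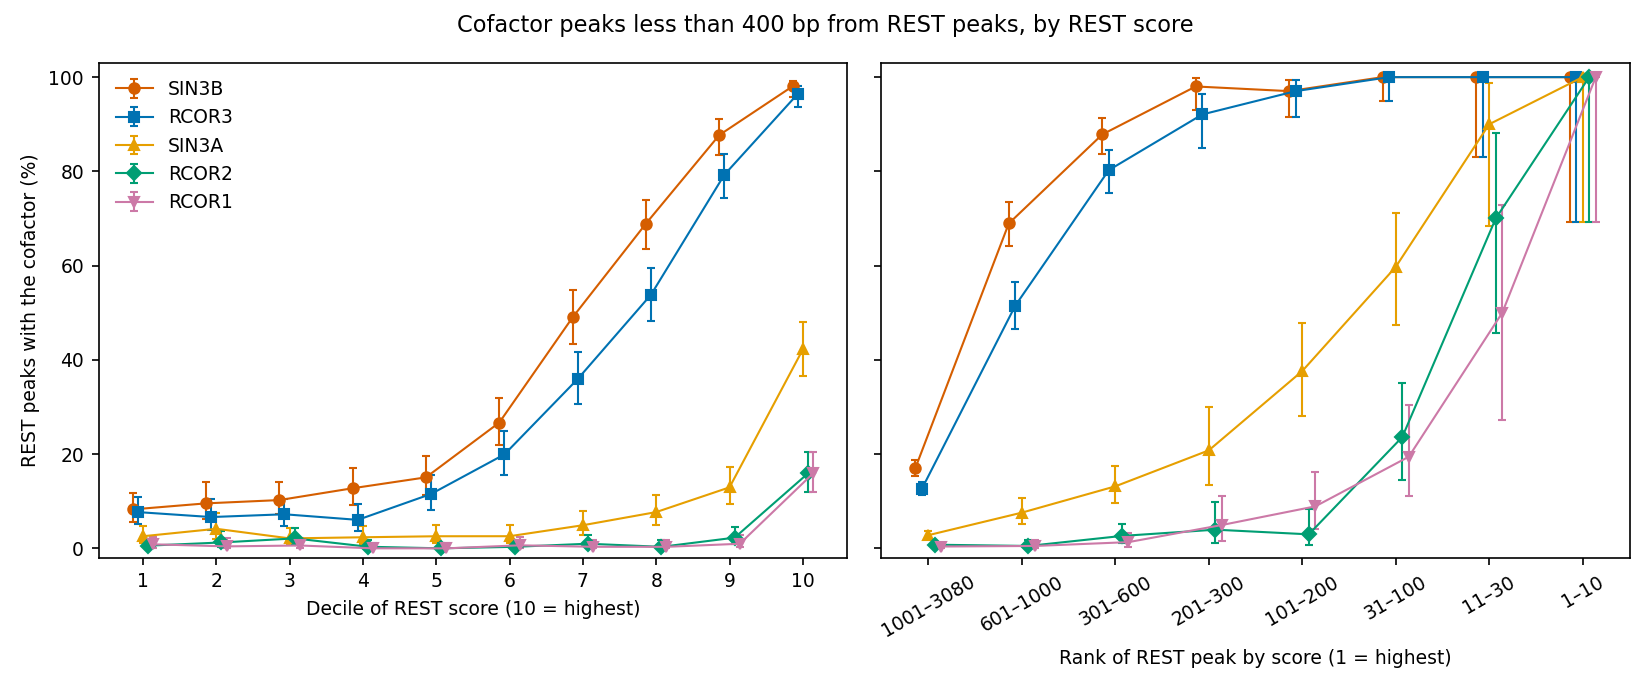
Share of REST peaks with a peak of each cofactor less than 400 bp away, by decile of REST score (left) and by rank of the REST peak (right); points are percentages and bars are exact 95% intervals. SIN3B and RCOR3 are above 50% from decile 8 on, SIN3A is at 42.2% in decile 10, and RCOR1 and RCOR2 reach 50% of a band only among the 30 highest REST peaks.

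By share of REST peaks with the full lists, SIN3B thus came before RCOR3 and RCOR3 before SIN3A. SIN3A came before RCOR1 and RCOR2, with no order between the last pair. The lengths of the lists follow the same order, and the medians were therefore also taken with shorter lists. With each cofactor list limited to about the 60 peaks of the shortest (60 to 71 with ties), the median REST score of the REST peaks met was 312.34 with SIN3B (23 REST peaks) and 272.63 with RCOR2 (21). It was 212.18 with RCOR3 (59), 198.25 with SIN3A (50) and 121.30 with RCOR1 (62). With the full lists the medians were 46.23 with SIN3B, 133.5 with RCOR2, 50.38 with RCOR3, 70.23 with SIN3A and the same 121.30 with RCOR1. SIN3B was thus lowest with the full lists and highest with the short ones, and RCOR1 was lowest with the short ones. However, the RCOR1 list was kept whole, down to its lowest score, while the other lists kept only their highest-scoring peaks. The depth of the cut was thus unlike, and the place of RCOR1 cannot be read as an order. The short-list medians have no interval, and those of SIN3B and RCOR2 rest on few REST peaks.

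RCOR2 was placed before RCOR1 by list length. An unbroken run from SIN3B through RCOR3, SIN3A and RCOR2 to RCOR1 was held by 195 of the 299 members (65.2%, 59.5 to 70.6%). Of these, 148 had RCOR3, SIN3A and SIN3B and neither RCOR1 nor RCOR2. The order was taken from these same lists, so the share is no test of it. The rule leaves out the lower steps, 355 REST peaks with SIN3B alone and 563 with only RCOR3 and SIN3B. Among REST peaks that were no members, only the 187 with RCOR3 alone broke the run. Its share over all REST peaks was therefore higher than among members. RCOR3 without SIN3B occurred at 10 of 253 members with RCOR3 (3.95%, 1.91 to 7.15%). Over all REST peaks with RCOR3 it occurred at 197 of 1003 (19.6%, 17.2 to 22.2%), since the rule leaves out the 187 REST peaks with RCOR3 alone. SIN3A without RCOR3 occurred at 42 of 258 (16.3%, 11.99 to 21.4%). RCOR2 without SIN3A occurred at 25 of 74 (33.8%, 23.2 to 45.7%), RCOR1 without SIN3A at 20 of 62 (32.3%, 20.9 to 45.3%) and RCOR1 without RCOR2 at 29 of 62 (46.8%, 34.0 to 59.9%). At single members, RCOR1 and RCOR2 thus held no fixed order between them or against SIN3A, although SIN3A was at more REST peaks.

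Breaks at the RCOR3 step lay in part on chromosomes 8 and 9. RCOR3 was at 28 and SIN3B at 69 of the 164 REST peaks of chromosome 8, and at 27 and 74 of the 182 of chromosome 9. Over all chromosomes, RCOR3 was at 32.6% and SIN3B at 38.7% of REST peaks. The lower RCOR3 share there thus held over all REST peaks and was not particular to members. RCOR3 was missing at 13 of 39 members there (33.3%, 19.1 to 50.2%) and at 33 of 260 members elsewhere (12.7%, 8.90 to 17.4%). Of the 28 members with SIN3A and SIN3B as their sole cofactors, 10 lay on those chromosomes, and of the 17 of them at or above the median REST score, 8 did. The highest of them was chr8:114828071-114828111, with a REST score of 82.97 (rank 216), a SIN3A score of 10.2 and a SIN3B score of 12.02. In the highest REST decile, RCOR3 was missing at 2 of 20 members on chromosomes 8 and 9 (10%, 1.24 to 31.7%) and at 2 of 134 elsewhere (1.49%, 0.181 to 5.29%).

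At the 10 highest REST peaks the cofactors also had many of their own strongest peaks. The highest, chr7:6014231-6014271, had a REST score of 1121.33. It was rank 1 in the lists of RCOR2 (score 52.01), RCOR3 (378.03), SIN3A (151.54) and SIN3B (253.67), and rank 2 in that of RCOR1 (56.98), with all 5 cofactor midpoints within 20 bp of the REST midpoint. At chr19:4989171-4989211 (REST score 696.98) SIN3A (92.53), SIN3B (138.44) and RCOR2 (33.92) had rank 2, RCOR3 (234.18) rank 3 and RCOR1 (39.74) rank 4. At chr14:62635791-62635831 (REST score 660.23) RCOR3 (237.52) had rank 2, RCOR1 (41.99) rank 3, RCOR2 (23.37) rank 6, and SIN3A (58.28) and SIN3B (115.23) rank 7. These members were thus near the top of all 6 lists.

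RCOR2 departed from this at some of the same sites. At chr8:14072691-14072731, the REST peak of rank 2 (838.04), SIN3A (78.68) and SIN3B (134.29) had rank 3, RCOR1 (31.49) rank 5 and RCOR3 (114.16) rank 9, but RCOR2 (8.54) had rank 415 of 437. At chr15:84657351-84657391 (REST score 584.97) SIN3A (75.04) had rank 4 and RCOR3 (139.67) rank 8, and RCOR2 (9.42) had rank 407. At chr15:77947171-77947211 (704.68) RCOR2 (16.58) had rank 37, percentile 90.8 of its list. At chr4:139531191-139531231 (676.53) RCOR2 (16.21) stood at percentile 89.8 of its list and RCOR1 (12) at 53.3, so there RCOR1 was the lower. At chr15:72395971-72396011 (427.91) and chr9:21700911-21700951 (417.83) RCOR2 had ranks 4 (27.89) and 3 (33.17) in its list, percentiles 99.2 and 99.4, and SIN3B (77.09 and 104.45) stood at percentiles 99.4 and 99.7 of its own. RCOR2 percentiles at the 10 highest REST peaks therefore went from 5.15 to 99.9, RCOR1 percentiles from 53.3 to 97.5 and SIN3A percentiles from 97.3 to 99.96, while all RCOR3 percentiles were at least 99.1.

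The highest REST peaks without all 5 followed directly. The REST peak of rank 11, chr6:121438871-121438911 (333.08), had RCOR1 (10.5), RCOR3 (72.76), SIN3A (21.13) and SIN3B (72.95) and no RCOR2. The REST peak of rank 12, chr12:43843251-43843291 (315.89), had RCOR3 (56.04), SIN3A (13.84) and SIN3B (60.52) and neither RCOR1 nor RCOR2. SIN3A was first missing at chr7:24068191-24068231 (242.99), which had RCOR2 (12.81), RCOR3 (71.93) and SIN3B (27.77), and next at chr2:33912771-33912811 (234.7), with RCOR1 (12), RCOR3 (57.71) and SIN3B (50.57). The highest member with RCOR2, RCOR3, SIN3A and SIN3B was chr7:122462091-122462131 (254.26). The first REST peak that was no member was chr16:95202731-95202771 at rank 31 (212.18), with RCOR3 (44.33) and SIN3B (65.49), and the next were at ranks 47 (165.35) and 51 (156.46), also with both. All 30 higher REST peaks were members.

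Over all members, peaks of RCOR3 and SIN3B stood higher in their lists than peaks of the cofactors of the rule. The median percentile was 93.4 (89.8 to 95.1) for RCOR3, 90.05 (88.3 to 91.6) for SIN3B, 70.5 (70.5 to 78.1) for SIN3A. It was 67.5 (43.5 to 75.4) for RCOR2, and RCOR1 peaks were at 53.3 (27.5 to 63.3). These percentiles are within lists of unlike length. Of the 60 RCOR1 peaks, 55 (91.7%, 81.6 to 97.2%) lay at a member, so the RCOR1 percentile could hardly leave the middle of that list. The highest RCOR1 score, 168.7, was not at a REST peak. Of the other lists, 64 of 437 RCOR2 peaks (14.6%, 11.5 to 18.3%), 241 of 1292 SIN3A peaks (18.7%, 16.6 to 20.9%), 232 of 3729 RCOR3 peaks (6.22%, 5.47 to 7.05%) and 253 of 5294 SIN3B peaks (4.78%, 4.22 to 5.39%) lay at a member. Among peaks in the top 60 of a list, ties included, the shares at a member were 85% for RCOR3 (51 of 60, 73.4 to 92.9%) and 74.2% for SIN3A (46 of 62, 61.5 to 84.5%). They were 30.6% for SIN3B (19 of 62, 19.6 to 43.6%) and 26.8% for RCOR2 (19 of 71, 16.9 to 38.6%). Within the top 60, RCOR3 and SIN3A peaks were thus mostly at members, and most SIN3B and RCOR2 peaks were not. In the top 10, ties included, most peaks of all 4 lists were at members. They were 10 of 10 for RCOR3, 9 of 10 for SIN3A, 7 of 10 for SIN3B (34.8 to 93.3%) and 7 of 11 for RCOR2 (30.8 to 89.1%).

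At members with all 5, the median percentile was 99.6 for RCOR3 (99.0 to 99.8), 99.1 for SIN3B (97.9 to 99.7), 97.7 for SIN3A (95.9 to 99.3), 85.6 for RCOR2 (75.4 to 96.5) and 75.8 for RCOR1 (53.3 to 85.8). SIN3A peaks stood at 96.1 (85.5 to 97.7) at the 62 members that also had RCOR1 or RCOR2 and at 70.5 (59.98 to 75.04) at the 196 that had neither. RCOR3 peaks stood at 98.4 (97.3 to 98.8, n = 98) with RCOR1 or RCOR2 and at 87.2 (83.6 to 89.8, n = 155) with neither. SIN3B peaks stood at 94.3 (91.6 to 97.1, n = 98) and 86.1 (83.1 to 89.7, n = 176). These groups were not matched for REST score, whose median was 62.23 at members with neither RCOR1 nor RCOR2. It was 99.57 with RCOR1 without RCOR2, 79.42 with RCOR2 without RCOR1 and 261.17 with both. SIN3A peaks at members with SIN3A alone stood at 59.98 (43.8 to 83.3) and at those with SIN3A and SIN3B at 51.9 (17.8 to 78.1), with overlapping intervals. The plot of list percentiles against REST percentile shows these values for each member.

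**Figure D3:**
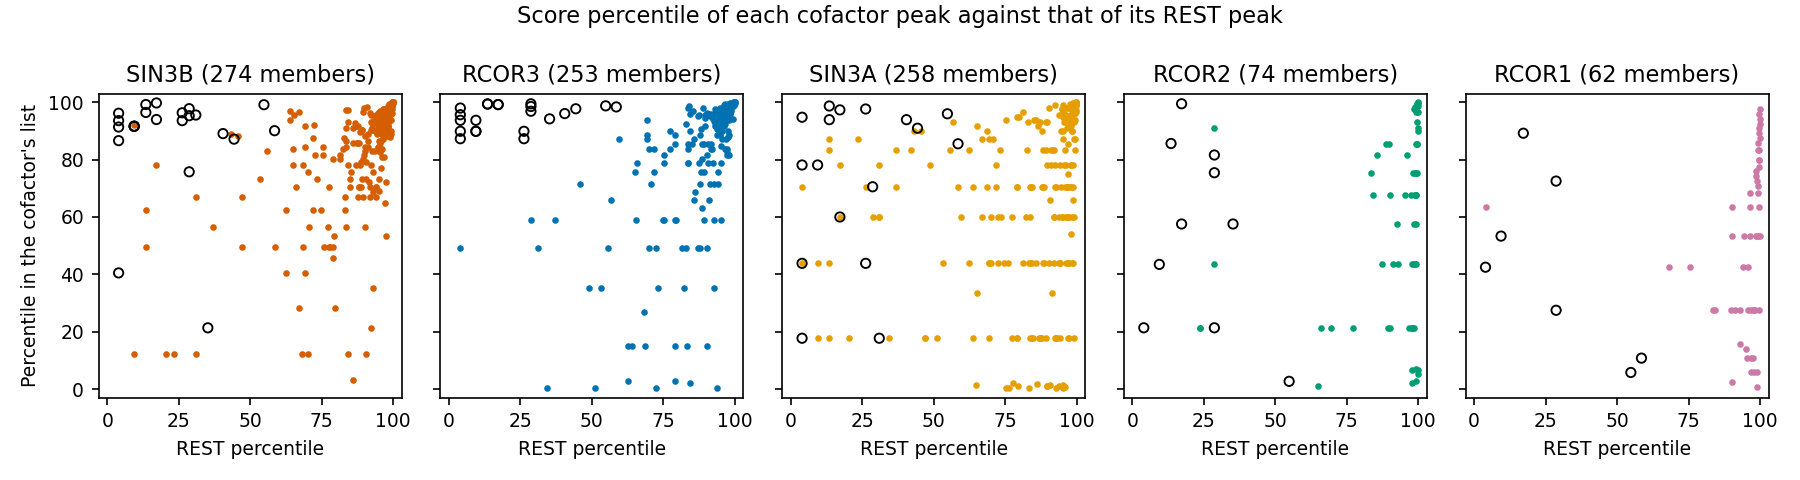
Percentile of each cofactor peak in its own list against the percentile of its REST peak, 1 point per member with that cofactor; open black circles are members with a stronger REST peak less than 400 bp away. Filled points of RCOR1 and RCOR2 gather at the highest REST percentiles over the whole height of their lists, while many RCOR3 and SIN3B peaks of the open circles stand high in their lists beside low REST percentiles.

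RCOR3 and SIN3B peaks at members were set beside those at the 563 REST peaks with only RCOR3 and SIN3B, in the same decile of REST score. In decile 9, where the median REST score was 60.45 for members and 56.90 for the others, RCOR3 stood at percentile 84.6 (75.7 to 89.8) at 38 members and 75.7 (71.4 to 81.4) at 187 others. SIN3B stood at 81.7 (78.0 to 86.6) at 43 members and 70.5 (66.8 to 75.7) at the others, with intervals that did not overlap. In decile 8 the intervals overlapped for RCOR3, at 65.2 (49.3 to 83.6) and 59.1 (49.3 to 66.0), and for SIN3B, at 62.3 (49.5 to 80.0) and 56.6 (49.5 to 62.3). In decile 10 the values were 96.5 (95.6 to 97.4) against 89.8 (87.2 to 91.6) for RCOR3 and 93.1 (91.6 to 94.7) against 85.6 (83.1 to 87.5) for SIN3B. There the members had a median REST score of 113.50 against 85.94, so REST score was not matched in decile 10.

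**Figure D4:**
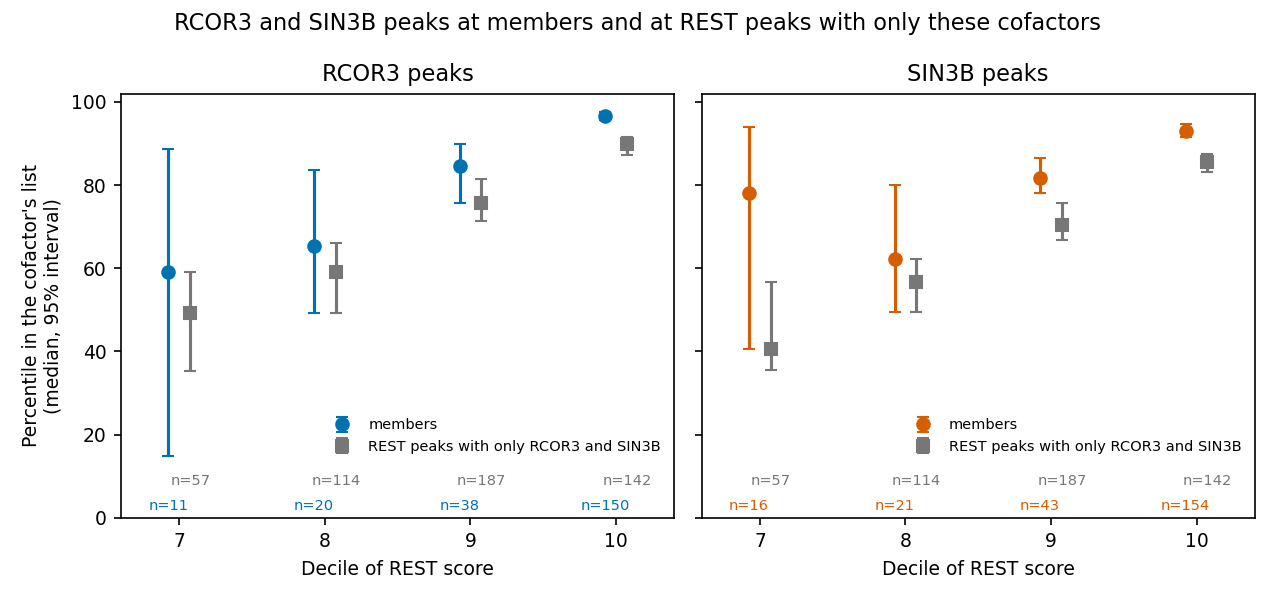
Median percentile of RCOR3 (left) and SIN3B (right) peaks in their own lists, at members and at REST peaks with only RCOR3 and SIN3B, for REST score deciles 7 to 10; bars are 95% intervals of the median and n is the number of REST peaks. In each of the 4 deciles the median at members lies above the other, with intervals that overlap in deciles 7 and 8 and, for RCOR3, in decile 9.

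The cofactor peaks lay close to the REST midpoint. Among members without a stronger REST peak less than 400 bp away, the median distance between midpoints was 20 bp for each of the 5 cofactors. Distances of at most 100 bp made up 96.4% of 55 RCOR1 distances and 93.8% of 64 RCOR2 distances. They made up 95.7% of 231 with RCOR3, 92.5% of 241 with SIN3A and 95.2% of 251 with SIN3B. Starts in all 6 lists lay on a 20 bp grid, so midpoints come in steps of 10 bp. The members nearest to the limit on the inside were chr19:10469871-10470111 and chr9:62949591-62949711 and chr2:21285451-21285771, each with its nearest peak of the rule at 360 bp and with REST scores of 26.08, 13.63 and 10.67. The REST peaks nearest to it on the outside, at 400, 420 and 430 bp, had scores of 8.89, 16.59 and 9.48 and no cofactor. Each of these 6 had a stronger REST peak 360 to 470 bp away.

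Members had a low REST score in 51 cases, that is, below the median of 21.34 (17.1%, 13.0 to 21.8%), and 27 of these had a score under 12.15, the lower quartile of all REST peaks. Low scores were thus a minority among members, and 3.32% of the 1534 REST peaks below the median were members. These exceptions fell into sets that differed by whether another REST peak was near. A REST peak of higher score lay less than 400 bp from 23 members (7.69%, 4.94 to 11.3%), against 2.05% of all REST peaks. It did so for 21 of the 51 (41.2%, 27.6 to 55.8%), whereas this was so for 59 of all REST peaks below the median (3.85%). That distance is the limit of the rule, so 1 cofactor peak can be matched to both REST peaks.

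The 21 low members beside a stronger REST peak were the ones with many cofactors. RCOR3 was present at 20 of them (95.2%, 76.2 to 99.9%), SIN3B at all 21 (83.9 to 100%), SIN3A at 15, RCOR2 at 9 and RCOR1 at 5. All 6 low members with 4 or 5 cofactors were among them, as were 20 of the 24 with 3 or more. The stronger peak lay 230 to 380 bp away (median 270 bp) and had a score from 34.97 to 417.83 (median 109.94). In 20 of the 21 cases it had the same combination of cofactors. Of the 70 cofactor marks on these 21 members, 68 came from a cofactor peak whose midpoint was nearer to a stronger REST peak than to the member itself. These members thus shared their cofactor peaks with a stronger neighbour.

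The lowest member with all 5 cofactors shows the pattern. At chr9:21701211-21701271 the REST score was 10.67 (rank 2499), while RCOR1 (23.99, rank 7), RCOR2 (33.17, rank 3), RCOR3 (59.38, rank 32), SIN3A (23.31, rank 34) and SIN3B (104.45, rank 16) were all high. The cofactor midpoints lay 300 to 370 bp from it, on the side of the REST peak of rank 10 at chr9:21700911-21700951 (417.83), 310 bp away, which was matched to the same cofactor peaks. At chr13:54760771-54760811 (REST score 13.04), also with all 5, the cofactor midpoints lay 250 to 280 bp away and a REST peak of score 196.77 lay 260 bp away. At chr7:122462351-122462391 (10.08), with RCOR2 (15.08), RCOR3 (66.91), SIN3A (29.14) and SIN3B (71.29), the neighbour had a score of 254.26 at 260 bp. At chr4:150132571-150132631 (10.67) it had 233.51 at 350 bp, at chr4:136179551-136179611 (13.04) 129.79 at 230 bp, and at chr5:134813531-134813571 (8.89) 34.97 at 240 bp. Among the 2 such members at or above the median, chr4:154703551-154703591 (23.71) had all 5 cofactors and lay 240 bp from a REST peak of 215.44.

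**Figure D5:**
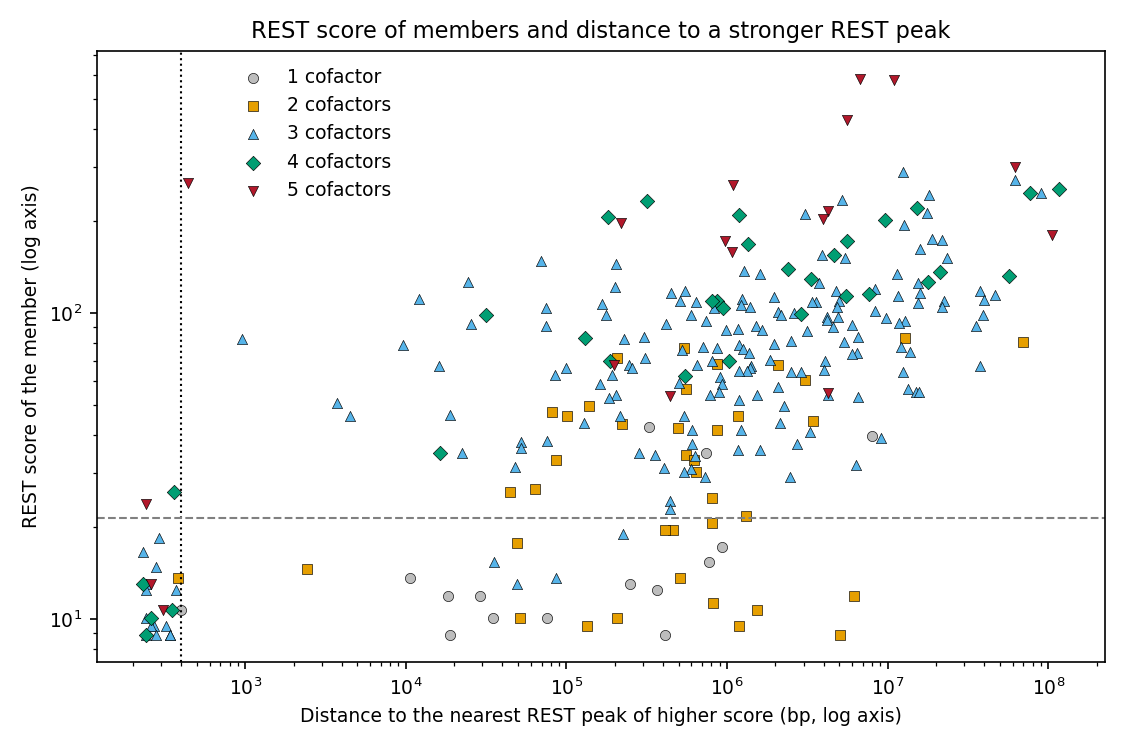
REST score of members against the distance to the nearest REST peak of higher score on the same chromosome, both on log axes; colours and shapes give the number of cofactors, the dotted line is at the limit of the rule and the dashed line at the median REST score, 21.34. The 17 members with no stronger REST peak on their chromosome are not drawn. Low members with 4 or 5 cofactors all lie left of the dotted line.

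The other 30 low members had few cofactors. SIN3A was present at 26 of them (86.7%, 69.3 to 96.2%), SIN3B at 14 (46.7%, 28.3 to 65.7%), RCOR3 at 7 (23.3%, 9.93 to 42.3%), RCOR2 at 4 and RCOR1 at 1. SIN3A alone made up 10 and SIN3A with SIN3B another 10. Neither RCOR3 nor SIN3B was found at 12 of the 30 (40%, 22.7 to 59.4%), and at 12 of all 51 low members (23.5%, 12.8 to 37.5%), against 3 of the 248 members at or above the median (1.21%, 0.2502 to 3.49%). Among the 1475 REST peaks below the median without a stronger neighbour, 30 (2.03%, 1.38 to 2.89%) were members and 4 (0.271%, 0.0739 to 0.693%) had 3 or more cofactors.

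RCOR3 and SIN3B ranks were higher in the set beside a stronger REST peak. Of the cofactor marks in that set, 68 of 70 were nearer to a stronger REST peak. These ranks are thus largely those of the neighbour's cofactor peaks and are no separate trait of the low members. At the 20 low members beside a stronger peak that had RCOR3, its median percentile was 95.8 (89.8 to 98.5), and at the 7 others 49.3 (0.456 to 71.4). SIN3B stood at 93.5 (89.0 to 96.1) and 59.5 (12.2 to 88.3). For SIN3A the values were 78.1 (43.8 to 94.7) at 15 members and 65.2 (43.8 to 78.1) at 26, and the intervals overlapped.

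The members with neither RCOR3 nor SIN3B had a single cofactor each, SIN3A at 13 and RCOR2 at 2. The highest was chr12:56190611-56190651, with a REST score of 42.47 (rank 732) and a SIN3A score of 8.01, which tied for the lowest of the SIN3A list. At chr18:46341551-46341611 the REST score was 39.71 and the SIN3A score 11.66. At chr2:90983371-90983411 the REST score was 34.97 and the SIN3A score 10.93, at chr6:116072831-116072971 they were 17.19 and 13.84, and at chr4:116619171-116619291 15.41 and 13.84. None of these 15 had a stronger REST peak less than 400 bp away, and 12 of them lay below the median REST score. However, chr2:21285451-21285771 (REST score 10.67) had a REST peak of score 118.53 at 400 bp, just past the limit. Its SIN3A peak, 360 bp away, was also matched to that stronger REST peak, which had RCOR3 and SIN3B as well. The highest member with RCOR3 and SIN3A and no SIN3B, chr11:96968431-96968471, had a REST score of 46.23, with RCOR3 at 19.24 and SIN3A at 12.39.

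With REST peaks under 400 bp apart reduced to the strongest of each chain, 3017 REST peaks remained and 276 were members. All 23 members with a stronger REST peak less than 400 bp away, 21 low and 2 at or above the median, had then merged into that peak. Members below the median became 10.9% (7.46 to 15.2%), members with all 5 cofactors numbered 26 with a median REST score of 283, and the median REST score of members was 77.64. Of the 62 REST peaks with RCOR1, 55 remained, and of the 74 with RCOR2, 64 did. The number of cofactors then still went with REST score, from 12.45 with 1 to 31.71, 79.42, 134.54 and 283 with 5.

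Members were spread over all chromosomes except Y. The share of REST peaks that were members ran from 3.57% on chromosome 1 (6 of 168, 1.32 to 7.61%) to 16.9% on chromosome 19 (13 of 77, 9.31 to 27.1%), and chromosome 4 held the most, 33 of 246 (13.4%, 9.42 to 18.3%). Chromosome 4 also held 13 of the 62 REST peaks with RCOR1 and 15 of the 74 with RCOR2, and 246 of all 3080 REST peaks. Among those with RCOR1 or RCOR2, chr4:136179551-136179611, chr4:150132571-150132631 and chr4:154703551-154703591 shared their cofactor peaks with a stronger REST peak less than 400 bp away. The median width of members was 40 bp, the same as over all REST peaks.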

How the data were processed

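For each library the deposited file lists peaks on mm8, per the file names, with chromosome, start, end and a score given by the authors; it has no header line. Per the labels' protocols, libraries had 15 cycles of PCR and fragments of about 250 bp. What the score measures, and the aligner, caller, control, threshold and read depth, is not given in the sources used here. Precision from depth is therefore unknown. A REST peak was matched to every cofactor peak whose midpoint lay less than 400 bp away. Where several matched, the highest-scoring was used. Shares have exact Clopper-Pearson intervals and medians have intervals from order statistics, both at 95%. Scripts used Python 3.11.15, numpy 2.4.6, pandas 2.3.3, scipy 1.17.1 and matplotlib 3.10.9, and were tested on simulated data. The members and lists were chosen with earlier results of these data known.

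Named regions were the 10 members of highest REST score, the highest of each combination with at least 5 members, the 3 highest of SIN3A, RCOR1 and RCOR2, the 5 highest with neither RCOR3 nor SIN3B, the 10 low members with the most cofactors (the first 6 are given in the text), and those next to the distance limit or highest among REST peaks that were no members. The bands of REST rank, the split by a stronger REST peak less than 400 bp away and the splits by chromosome and by decile were chosen after seeing the data, as was chr4:154703551-154703591. Of the alternatives, other distances, deposited intervals, the better-scoring 50% of each list, lists of equal length, merged REST peaks, the stretch of chromosome X kept and chromosomes 8 or 9 left out were tried.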

Additional observations from a re-analysis of the deposited data

Results flagged for a closer look

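In the stretch of chromosome X that was left out, cofactor peaks were found beside REST peaks that scored at most little above the median of 21.34. All 24 of its REST peaks met the rule, and 7 of them had all 5 cofactors. RCOR1 was at 19 of them, RCOR2 at 19, SIN3B at 17, SIN3A at 16 and RCOR3 at 13, while REST scores there reached 23.11. Of the 24, 4 had another REST peak less than 400 bp away. With the stretch kept, the members numbered 323.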

How the results depend on the processing

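Over 14 values and 9 alternatives, 24 of 126 recomputed values moved outside the 95% interval of the value given (for the count of members, by over 1.5 times). None moved with midpoints under 1000 bp apart or without chromosome 8 or 9. With cofactor lists of equal length there were 89 members, with RCOR3 at 49.4%, SIN3B at 23.6%, neither at 50.6% (55.6% of low members), 10.1% below the median REST score, median REST percentiles of 97.1 for members, 98.8 with SIN3A and 99.5 with RCOR2, and median list percentiles of 55.6 for SIN3A and 78.2 for RCOR2. With intervals as deposited, SIN3B was at 82.5% of members, all 5 cofactors at 5.26%, 7.89% of members were low, 44.4% of these had neither RCOR3 nor SIN3B, and the median REST percentile was 93.0. The better-scoring 50% of each list gave 196 members and a REST percentile of 98.8 with RCOR1. Low members made up 10.9% with midpoints under 200 bp apart, 10.9% with merged REST peaks (40% of them with neither) and 21.98% with the stretch of chromosome X kept, where the REST percentile was 95.3 with RCOR1 and 91.2 with RCOR2. By construction, the shorter distance and deposited intervals drop distant matches, and merging drops REST peaks beside a stronger one. Equal lengths and the better-scoring 50% drop cofactor peaks, and list percentiles were then taken within the shortened lists. The 50% setting also shortened the REST list, so its REST percentiles are within the better-scoring 50% of REST peaks. The cause of the other moves was not tested. No paired analysis was possible because each protein has 1 library.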

Other observations

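Cofactor lists held a thin tail of peaks below their most frequent score, and for SIN3A, RCOR3 and SIN3B this tail lay at REST peaks more often than peaks at that score did. The most frequent score was 10.2 for SIN3A, 10.87 for RCOR3, 10.78 for SIN3B, 10.55 for RCOR2 and 10.5 for RCOR1. Of the 28 SIN3A peaks below it, 15 (53.6%, 33.9 to 72.5%) lay less than 400 bp from a REST peak, against 28 of 403 at it (6.95%, 4.67 to 9.89%) and 198 of 861 above it (23.0%, 20.2 to 26.0%). For RCOR3 these shares were 50.9% (59 of 116, 41.4 to 60.3%), 7.48% (66 of 882) and 30.5% (832 of 2731), and for SIN3B 33.3% (59 of 177, 26.4 to 40.8%), 8.45% (79 of 935) and 24.2% (1010 of 4182). For RCOR2 they were 21.9% (7 of 32, 9.28 to 39.97%), 9.76% (12 of 123, 5.14 to 16.4%) and 16.0% (45 of 282), with overlapping intervals. For RCOR1 they were 100% (10 of 10, 69.2 to 100%), 84.6% (11 of 13, 54.6 to 98.1%) and 91.9% (34 of 37, 78.1 to 98.3%), which also overlapped. Among members, 12 had RCOR1 from this tail with a median REST score of 106.68, 8 had RCOR2 with 176.03, 15 had SIN3A with 67.56, 7 had RCOR3 with 37.93 and 1 had SIN3B with 59.07. At the most frequent score itself the medians were 93.65 for RCOR1, 55.41 for RCOR2, 54.53 for SIN3A, 40.3 for RCOR3 and 23.86 for SIN3B. The RCOR2 peaks of ranks 407 and 415 at chr15:84657351-84657391 and chr8:14072691-14072731 belong to the tail below the most frequent RCOR2 score. This split was chosen after seeing the scores, and why the lists have such a tail was not tested.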
